A study of Sus scrofa with 30 samples.

Results

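The transcriptomes of 10 Day 12 pig embryos were compared with those of 10 Day 10 embryos, 20 of the 30 embryos of the series. The 20 columns of these embryos in the table of all embryos were taken, and all 13103 genes of that table were tested. The embryos came from crossbred German Landrace × Pietrain gilts inseminated with semen of a single Pietrain boar, and 4 gilts were slaughtered on each day. Each sample was 1 whole embryo flushed from the uterus, embryonic disc and trophectoderm together, and each day held 5 female and 5 male embryos. Poly(A) RNA was sequenced with a stranded protocol. All gilts had been cycle synchronized with altrenogest and then given equine and human chorionic gonadotropin, on every day alike. The labels separate the groups by age, and the gilts of one day were not those of the other. Part of the embryos of a day were littermates, so that the p-values measure the spread between these embryos and not between litters.

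Around Day 10 the pig blastocyst is spherical to ovoid, and within a short time it passes through a tubular to a filamentous form. This elongation rests mainly on the reshaping of the trophectoderm, the outer epithelium that later forms the fetal part of the placenta, together with the hypoblast that lines it and becomes the yolk sac wall. The epiblast, from which the fetus arises, forms only a small disc of the elongating conceptus. In the same period the conceptus signals to the endometrium with estrogens, interleukin 1 beta and interferons.

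Library totals were 19773328 to 32476637 counts on Day 10 and 6068212 to 34002508 counts on Day 12, where the smallest, of female embryo d12_f_245, was followed by 15997367 counts. Levels are given as CPM, the counts of a gene relative to the library total after scaling with TMM factors, not corrected for transcript length, so that they are compared between embryos and not between genes. A level of 3 counts corresponded to at most 0.17 CPM on Day 10 and 0.434 CPM on Day 12. For a gene at or under 3 counts in every embryo of a day, no fitted value is given. A lower bound of the fold change against this floor, or the levels alone, are given in its place. The median correlation of an embryo with the others of its day, over log2(CPM + 1) of all genes, was 0.968 to 0.986 on Day 10 and 0.962 to 0.975 for 8 of the Day 12 embryos. Female Day 12 embryos d12_f_271 and d12_f_245 stood apart with 0.94 and 0.918.

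On Day 12, 1951 genes were called higher (14.9% of the genes tested) and 1099 genes were called lower (8.39%). A gene was called at an adjusted p under 0.001 in the quasi-likelihood test of edgeR and a change of more than 1 on the log2 scale, and the median log2 fold change over all genes was 0.043. In 2175 genes (16.6%) the ranges of the 10 embryos of Day 10 and the 10 embryos of Day 12 did not overlap, and 1693 of these genes were also called. With library size alone in place of TMM factors, the median of all genes shifted by 0.195 on the log2 scale, and 2396 genes were higher and 891 lower, so that the share of higher genes among the calls went from 64% to 72.9%. Without embryos d12_f_245 and d12_f_271, an alternative chosen after seeing the data, 1935 genes were called higher and 1107 lower. Against a fold change of 2 in place of 0, 984 genes were higher and 590 lower. Of the genes named below, CCND3, CDX2, CLDN8, DNMT3B, FN1, FOXA2, GATA3, KRT8, LAMB3, LIN28A, MMP14, PECAM1, PLXNB2, TEAD4, TET2 and TFAP2A then lost the call. In male embryos alone CDH17, CDH3, FN1, FOXA2, GATA5, HOXA10, ISG15, LAMB3, LHX1, LIN28A, SLIT2, TEAD4 and TET2 lost it, and in female embryos alone DNMT3B, FN1, LAMB3, MMP14 and PECAM1. Counts of called members of a gene list are to be read against 14.9% and 8.39% over all genes.

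A small number of genes went from background to a clear signal in every embryo. By the rule for a gene turned on (called higher, under 1 CPM in each Day 10 embryo and at least 2 CPM in each Day 12 embryo), 50 genes (0.382% of those tested) were turned on, and by the reverse rule 22 genes (0.168%) were turned off. The counts depended on the threshold, with 29 genes on and 10 off where silence was set at under 0.5 CPM, and with 107 on and 46 off where 9 of the 10 embryos of each day had to comply. RAB19, at 1 CPM in its highest Day 10 embryo and 2.31 CPM in its lowest Day 12 embryo, lay just outside, and C15H2orf72, at 0.682 and 2.01 CPM, just inside. At the other end GLT1D1, at 2.6 CPM in its lowest Day 10 embryo and 0.989 CPM in its highest Day 12 embryo, lay just inside.

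Among the genes turned on, products of the cell surface and secreted signals came first. IFN-DELTA-1, an interferon delta of the pig conceptus, was at 0 counts in all 10 Day 10 embryos and reached 6.95 to 87.4 CPM (median 21.3) on Day 12, at least 176-fold higher (adjusted p = 3.59e-08). FUT9, a fucosyltransferase that completes the Lewis X glycan (chromosome Unknown, 51038 to 65282 of assembly Sscrofa11.1), went from 0 to 0.17 CPM (median 0.0606) to 43.4 to 579 CPM (median 198), at least 1464-fold higher (adjusted p = 2.85e-19). Both were silent in every Day 10 embryo, as the rule requires, with the Day 12 embryos spread over about one order of magnitude. PROM2, a prominin of membrane protrusions (chromosome 3, 46001949 to 46025425), rose from 0.147 to 0.821 CPM (median 0.289) to 102 to 1546 CPM (median 434.6) (log2 fold change 10.45 ± 0.58). LYPD6, a membrane-anchored modulator of WNT signalling, rose from 0 to 0.181 CPM (median 0.0408) to 23 to 150.0 CPM (median 64.9) (10.35 ± 0.43). ADORA1, the A1 receptor of adenosine, rose from 0 to 0.227 CPM (median 0.0772) to 27.7 to 63.5 CPM (median 40.2) (8.63 ± 0.32), and its Day 12 embryos lay closer together than those of PROM2 and LYPD6. The hormone leptin, LEP, had at most 3 counts in any of the Day 10 embryos and was at 15.2 to 54.3 CPM (median 24.5) on Day 12, at least 168-fold higher (adjusted p = 1.42e-18).

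TIAM2, CEBPA, S100A9, MORN3 and UABP-2 were also among the 12 with the largest change. TIAM2, an exchange factor that activates the small GTPase RAC1, went from 0 to 0.875 CPM (median 0.235) on Day 10 to 17.1 to 73.1 CPM (median 37.5) on Day 12, a log2 fold change of 7.16 ± 0.38 (SE, adjusted p = 2.85e-16). S100A9, a subunit of calprotectin and otherwise known from myeloid cells, went from 0 to 0.939 CPM (median 0.0527) to 4.12 to 247 CPM (median 12.5), and the highest embryo alone set the upper end of that range. MORN3 went from 0 to 0.144 CPM (median 0) to 4.22 to 55.5 CPM (median 8.8), and UABP-2 from 0 to 0.108 CPM (median 0) to 3.01 to 18.5 CPM (median 5.16). The other genes turned on with a symbol included the transcription factors DLX1, FOSL1, NR5A2 and BHLHE41, the guidance genes SEMA3E, SEMA5A and EPHA4, the ligands PTHLH, GDF11 and C1QTNF4, the matrix protein POSTN, the glycoprotein THY1, the uroplakin UPK3B and the myosin MYH7. On Day 8, 41 of the 50 genes were likewise under 1 CPM in all 10 embryos, and none was at or over 2 CPM in all of them.

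The genes turned off were of mixed function, with adaptors, channels and an orphan receptor at the head. FYB, an adaptor of integrin signalling in immune cells, was at 10.7 to 79.4 CPM (median 63.6) on Day 10 and had at most 3 counts in any of the Day 12 embryos, at least 123-fold lower (adjusted p = 5.12e-17). KCNQ1, a voltage-gated potassium channel (chromosome 2, 1675323 to 1989110), fell from 36.9 to 72.8 CPM (median 51.9) to 0 to 0.24 CPM (median 0.099), a log2 fold change of -8.67 ± 0.2 (SE, adjusted p = 2.97e-25). ESRRB, an orphan nuclear receptor of the pluripotency network that is also active in trophoblast stem cells of the mouse (chromosome 7, 99511135 to 99699478), fell from 23.4 to 158 CPM (median 67.4) to 0 to 0.929 CPM (median 0.103), a log2 fold change of -8.22 ± 0.44 (SE, adjusted p = 3.58e-16). The Day 8 embryos had a median of 350.3 CPM for ESRRB and of 15.6 CPM for KCNQ1, so that the first was highest on Day 8 and the second on Day 10. AQP9, a channel for water and glycerol, fell from 4.99 to 22 CPM (median 14.6) to 0 to 0.235 CPM (median 0) (-8.17 ± 0.44). WNT3A, a WNT ligand, fell from 2.62 to 8.53 CPM (median 4.42) to 0 to 0.377 CPM (median 0.0766) (-5.16 ± 0.34). DSC1, a desmosomal cadherin, fell from 2.97 to 9.79 CPM (median 5.64) to 0 to 0.58 CPM (median 0.056) (-5.71 ± 0.44). By the rule for a gene turned off, no Day 12 embryo could reach the lowest Day 10 embryo for any of them. GAPDHS, the form of glyceraldehyde phosphate dehydrogenase known from sperm, was at 6.59 to 34.8 CPM (median 20.2) on Day 10, XPNPEP2, a membrane aminopeptidase, at 3.07 to 65 CPM (median 7.59), and RNASE12, of the ribonuclease A family, at 2.4 to 45.5 CPM (median 7.83). The last 2 were uneven on Day 10, with the highest embryo far above the median. STEAP4, a metalloreductase, SYNPO2, an actin-bundling protein, and TMEM158 completed the 12. On Day 8, 11 of the 22 genes were at or over 2 CPM in all 10 embryos and 2 were under 1 CPM in all of them.

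**Figure D1:**
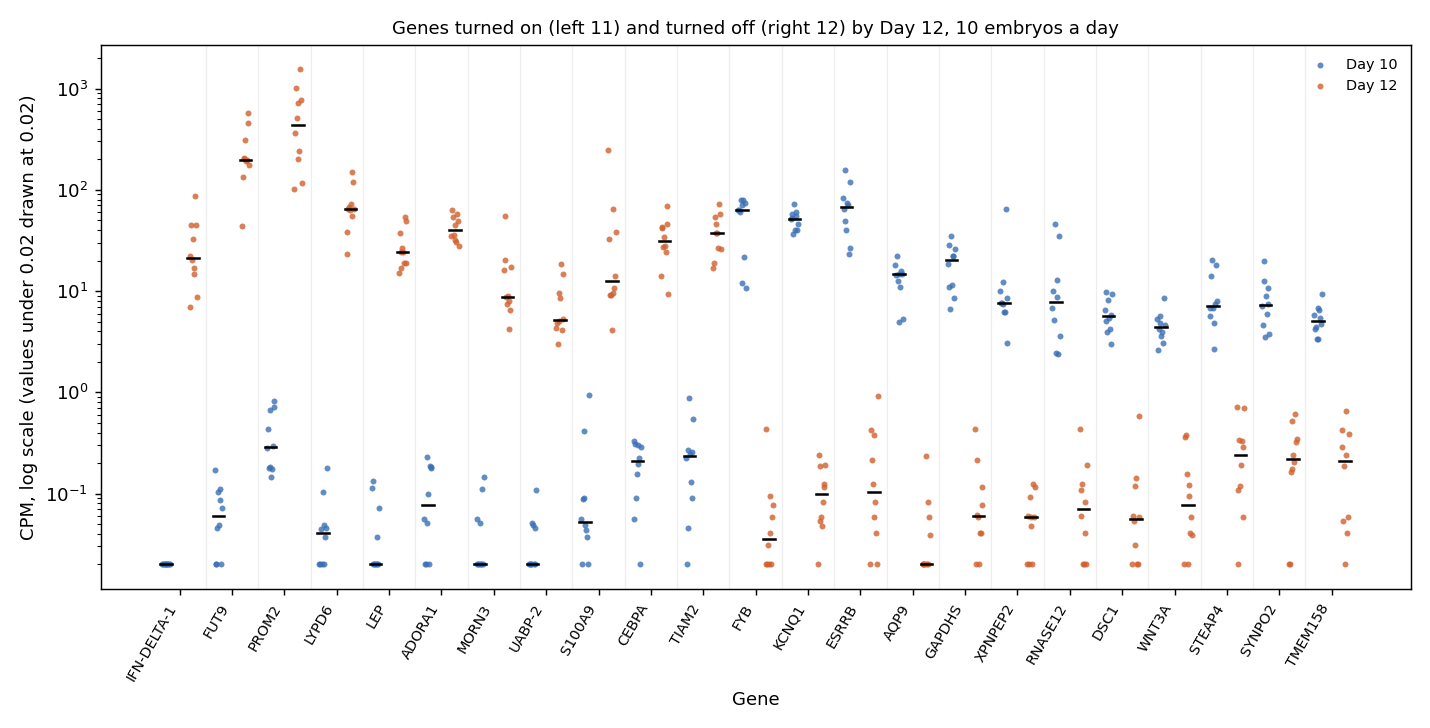
CPM on a log scale in each of the 10 Day 10 embryos (blue) and 10 Day 12 embryos (orange) for 11 of the 12 genes turned on and the 12 turned off with the largest change, with the median as a bar. The rule for genes turned on or off sets that the clouds of the 2 days are separate for all 23 genes. It also sets that the highest Day 10 embryo of any gene on the left is under 1 CPM.

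Among the transcription factors more genes rose than fell. Of 429 factors in 25 lists by family, 112 were called higher (26.1%) and 47 lower (11%), against 14.9% and 8.39% of all genes, and their median log2 fold change was 0.33. In 10 of the 25 lists every call was a rise, among them the GATA (4 of 6 members), IRF (4 of 7), STAT (3 of 6), SMAD (4 of 8) and HOX (3 of 12) lists. Against a fold change of 2, these counts were 3, 1, 1, 2 and 2, in male embryos alone 3, 1, 1, 3 and 1, and in female embryos alone 4, 3, 1, 3 and 3. The forkhead list had 9 of 20 members called higher and 1 lower, and the list of homeobox genes other than HOX had 20 of 50 higher and 8 lower. Basic helix-loop-helix factors (14 higher and 7 lower of 51) and nuclear receptors (9 higher and 5 lower of 29) went both ways. TEAD factors and their cofactors leaned down, with 4 of 9 called lower and 1 higher. Of these 9, 1 was called lower against a fold change of 2, 2 in male embryos alone and 5 in female embryos alone.

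The rises with the largest change among factors whose days did not overlap were led by CEBPA and TP63. CEBPA, a leucine zipper factor that drives differentiation in several tissues (chromosome 6, 43083200 to 43085884), went from 0 to 0.328 CPM (median 0.209) on Day 10 to 9.25 to 69.8 CPM (median 31) on Day 12, a log2 fold change of 7.37 ± 0.39 (SE, adjusted p = 2.24e-16). TP63, a factor that maintains stratified epithelia, went from 0.0565 to 1.51 CPM (median 0.505) to 28.9 to 145 CPM (median 73.2), a log2 fold change of 6.95 ± 0.36 (SE, adjusted p = 1.31e-16). SP6, a zinc finger factor of skin appendages and teeth, had a level on Day 10 already and rose from 5.13 to 10.2 CPM (median 6.8) to 43.8 to 209 CPM (median 108), a log2 fold change of 4.04 ± 0.22 (SE, adjusted p = 3.91e-16). The 2 AP-1 type factors among the 15 were low on Day 10. FOSL1, a partner of JUN, went from 0 to 0.412 CPM (median 0.147) to 4.06 to 20.6 CPM (median 8.18) (5.67 ± 0.5), and BATF3 went from 0.227 to 4.73 CPM (median 0.848) to 9.21 to 70.5 CPM (median 41.4) (4.71 ± 0.47). For BATF3 the highest Day 10 embryo was above the median of its day by several fold. That it was below the lowest Day 12 embryo is set by the choice of factors without overlap.

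Homeobox and nuclear receptor genes were also among the 15. DLX1, a distal-less factor, rose from 0.089 to 0.478 CPM (median 0.176) to 4.8 to 32.8 CPM (median 12.7), a log2 fold change of 5.98 ± 0.35 (SE, adjusted p = 2.96e-15), and POU6F1 rose from 0.521 to 1.08 CPM (median 0.785) to 10.9 to 58.8 CPM (median 23.9) (5.09 ± 0.28). HOXC13, known from hair follicles, rose from 0 to 0.545 CPM (median 0.173) to 1.01 to 35.1 CPM (median 9.68) (5.55 ± 0.55). The Day 12 embryos differed more from each other in HOXC13 than in DLX1. NR5A2, an orphan nuclear receptor that activates genes of steroid synthesis and is part of the pluripotency network, rose from 0.257 to 0.782 CPM (median 0.49) to 2.94 to 28.6 CPM (median 18.8), a log2 fold change of 5.14 ± 0.34 (SE, adjusted p = 5.15e-14). BHLHE41, a repressor in the circadian clock, rose from 0.0515 to 0.454 CPM (median 0.272) to 2.89 to 12.7 CPM (median 5.78), and FOXI3, a forkhead factor of ectodermal appendages, from 0 to 0.36 CPM (median 0.11) to 1.01 to 10.7 CPM (median 3.71). SMAD9, which relays BMP signals, rose from 0.147 to 0.412 CPM (median 0.334) to 0.84 to 10.9 CPM (median 3.81). SMAD1, which acts in the same branch, rose from 4.27 to 8.59 CPM (median 6.25) to 40.2 to 122 CPM (median 92.6), a log2 fold change of 3.86 ± 0.2 (SE, adjusted p = 7.56e-17).

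The GATA family comprises zinc finger factors of trophectoderm, hypoblast and blood. GATA3, a trophectoderm factor, rose from 93.1 to 144 CPM (median 128.9) to 169 to 462.5 CPM (median 244.9) (1.23 ± 0.15), and the hypoblast factor GATA4 rose from 18.9 to 25.7 CPM (median 21.6) to 31.5 to 127 CPM (median 70.4) (1.72 ± 0.2). Both had no overlap between days. GATA5 appeared at a low level, from 0 to 0.196 CPM (median 0.0223) to 0.232 to 4.2 CPM (median 0.737) (4.42 ± 0.59). GATA1, the erythroid factor, was at or under 3 counts in all Day 10 embryos and at 0.123 to 2.64 CPM (median 1.24) on Day 12, at least 8.49-fold higher (adjusted p = 1.09e-08). GATA2 and GATA6 were not called, with medians of 354 and 403 CPM and of 57.1 and 43.9 CPM on Days 10 and 12. The red cell genes HBB and ALAS2 were not called, at 0.118 to 8.36 CPM (median 0.945) and 0.96 to 4.66 CPM (median 2.57) on Day 12.

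The factors that fell with the largest change fell mostly to the limit of detection, and many of them belong to the epiblast and the primitive streak. EOMES, a T-box factor of streak and trophoblast, went from 0.684 to 3.65 CPM (median 2.81) to at most 3 counts in every embryo, at least 6.09-fold lower (adjusted p = 1.56e-14). NANOG, of the pluripotency core, went from 1.13 to 3.08 CPM (median 2.3) to at most 3 counts, at least 5.15-fold lower (adjusted p = 8.4e-14), and POU5F1 from 10.6 to 20.6 CPM (median 13.7) to 0.611 to 4.05 CPM (median 1.54), a log2 fold change of -3.14 ± 0.23 (SE, adjusted p = 6.67e-13). OTX2, of the anterior epiblast, was at 0.639 to 1.86 CPM (median 1.12) on Day 10, SOX2 at 0.228 to 0.772 CPM (median 0.425), PRDM14 at 0.253 to 0.904 CPM (median 0.613) and LHX1 at 0.309 to 0.518 CPM (median 0.373), and each had a median of 0 CPM on Day 12. The Day 10 medians of SOX2 and LHX1 lay under 0.434 CPM, the level of 3 counts in the smallest Day 12 library. At such low levels the size of a fall is uncertain. T, brachyury, of the streak and the early mesoderm, fell from 0.0913 to 2.94 CPM (median 1.46) to 0 to 0.19 CPM (median 0.0193) (-4.89 ± 0.64). In bulk samples, a smaller share of epiblast cells and less RNA of these genes per epiblast cell cannot be told apart. Of 11 markers of the primitive streak and mesoderm, 6 had no row, and of the other 5, 0 were called higher, 3 lower and 2 not called. The summed level of these 5 was 6.16 to 10.8 CPM on Day 10 and 2.33 to 6.37 CPM on Day 12, with overlapping ranges. ASCL2, a factor of the early trophoblast in the mouse, fell from 20.4 to 36.4 CPM (median 31.6) to 0 to 4.02 CPM (median 0.203), a log2 fold change of -5.28 ± 0.49 (SE, adjusted p = 7.09e-11), and 2 Day 12 embryos, d12_f_271 and d12_m_307, were above 2 CPM. TFEB, the activator of lysosomal genes, fell from 15 to 30.1 CPM (median 23.8) to 0.989 to 3.54 CPM (median 1.74), a log2 fold change of -3.65 ± 0.19 (SE, adjusted p = 8.98e-17), and GLIS2, of the GLI-similar family, from 21.2 to 38.3 CPM (median 28.7) to 2.35 to 5.93 CPM (median 3.95) (-2.81 ± 0.16). TEAD2, a DNA-binding partner of YAP, fell from 2.57 to 4.54 CPM (median 2.87) to 0.145 to 1.73 CPM (median 0.46) (-2.41 ± 0.3).

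**Figure D2:**
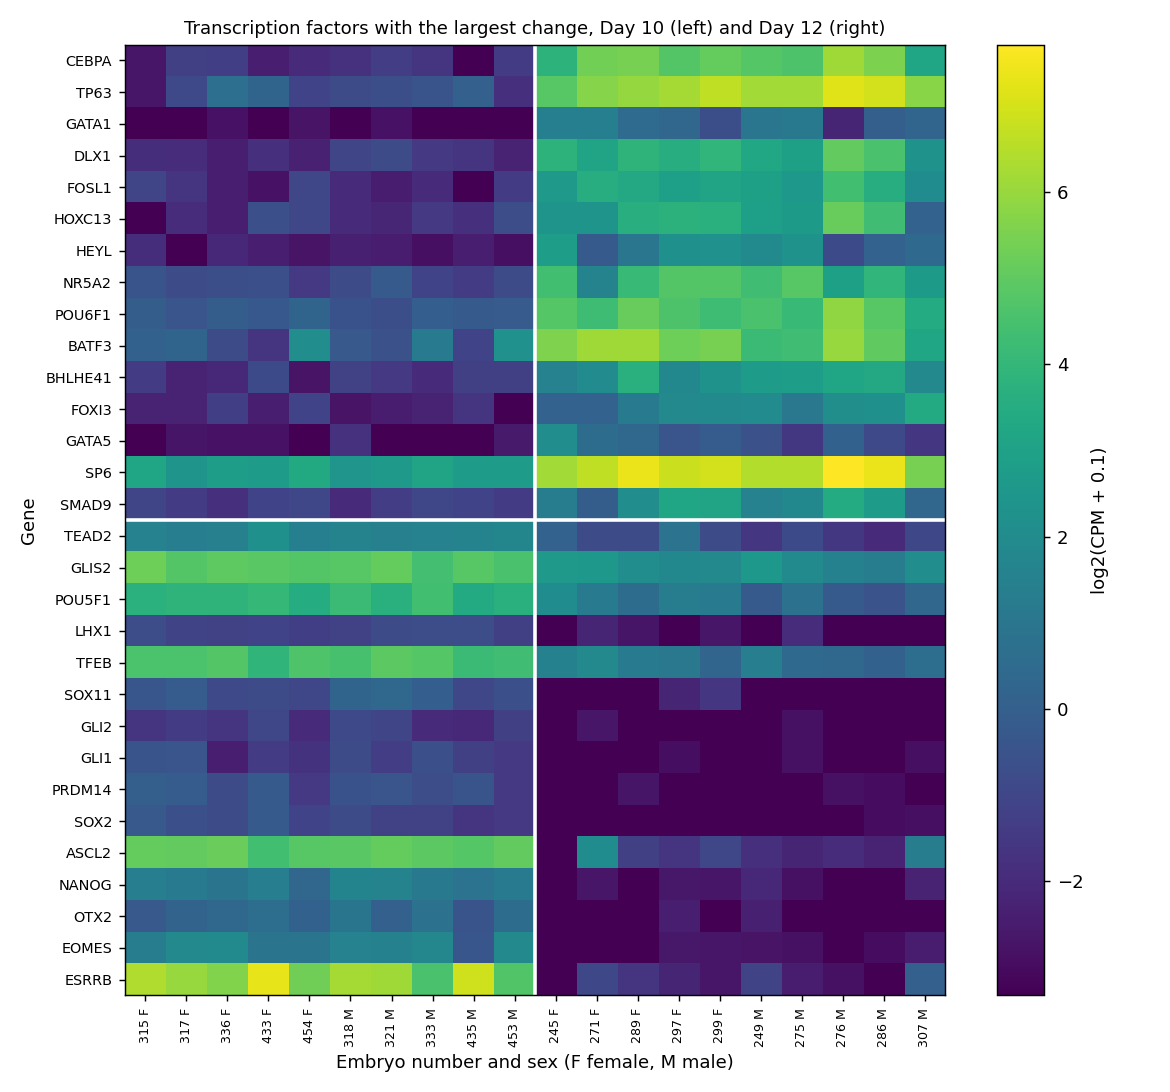
Heat map of log2(CPM + 0.1) in the 20 embryos for the 15 transcription factors with the largest rise (above the white line) and the 15 with the largest fall (below it), Day 10 on the left and Day 12 on the right. The 30 genes were chosen among called factors whose ranges did not overlap between the 2 days. On Day 12 ASCL2 is above 2 CPM in embryos d12_f_271 and d12_m_307 only.

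The marker genes of the 3 first lineages went in different directions. Of 10 epiblast markers, 0 were called higher and 8 lower, and the median log2 fold change of the list was -3.03 with fitted values and -1.45 with the 4 genes at the floor set to their bounds. Of 8 hypoblast markers with a row, 6 were called higher and 0 lower (median 1.58), and of 10 trophectoderm markers 3 were higher and 4 lower (median -0.15). Against a fold change of 2, 4 of the 8 hypoblast markers were called higher. In male embryos alone 3 were higher and in female embryos alone 6. The epiblast fall was not uniform. The summed level of the 10 epiblast markers was 456 to 1978 CPM (median 921) on Day 10 and 457 to 1372 CPM (median 525) on Day 12, so that the ranges overlapped. With the robust generalized linear model of edgeR 1 marker was called higher and 8 lower, and with library size alone 1 higher and 7 lower. DPPA5 was not called, with 24.5 to 678 CPM (median 96) on Day 10 and 277 to 1220.0 CPM (median 399) on Day 12, and TDGF1, a coreceptor of NODAL, fell from 261 to 1159.5 CPM (median 593) to 58.6 to 131 CPM (median 81.3) (-2.92 ± 0.23). NODAL itself was at 0.954 to 1.69 CPM (median 1.31) on Day 10 and had 0 counts in all 10 Day 12 embryos, at least 3.06-fold lower (adjusted p = 5.1e-14). LIN28A, which blocks the maturation of let-7 microRNAs, fell from 86.5 to 152 CPM (median 111.3) to 9.48 to 152 CPM (median 42.6) (-1.3 ± 0.29) with overlapping days, and lost its call with library size alone (-1.05, adjusted p = 0.00327) and in the fit of the 20 embryos alone (-1.32, adjusted p = 0.00246).

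Hypoblast genes rose in a graded manner between embryos. HNF4A, a nuclear receptor of endoderm, rose from 23.4 to 39.3 CPM (median 34.9) to 29.4 to 275.96 CPM (median 163.5) (2.28 ± 0.26), and PDGFRA, the receptor of PDGF, from 36.8 to 73.8 CPM (median 59.7) to 43.9 to 909.9 CPM (median 219) (2.52 ± 0.36). SOX17, at 17.2 to 33 CPM (median 23) and 19.9 to 98.8 CPM (median 42.7), and GATA6 were the members not called. The summed level of the 8 genes was 778 to 1485 CPM on Day 10 and 1373 to 6770 CPM on Day 12, so that the ranges overlapped. That of the 10 trophectoderm markers was 32996 to 50317 CPM on Day 10 and 9397 to 28042 CPM on Day 12. These 10 include KRT8 and KRT18, whose levels are given below. In the trophectoderm list HAND1, a helix-loop-helix factor of trophoblast differentiation, rose from 22.7 to 175 CPM (median 66) to 584 to 1852 CPM (median 1064), a log2 fold change of 3.79 ± 0.35 (SE, adjusted p = 6.94e-11), after a median of 0 CPM on Day 8. TFAP2A rose from 35.5 to 66.4 CPM (median 52) to 74.1 to 142 CPM (median 98.7) (1.04 ± 0.13), just past the fold threshold. Without any 1 of embryos d10_m_333, d10_m_453, d12_f_245 and d12_f_271 the change of TFAP2A was 0.98 to 1.0 and no longer past it. CDX2 fell from 196 to 256 CPM (median 208) to 45.3 to 186 CPM (median 65.7) (-1.42 ± 0.17) and TEAD4 from 31.2 to 47 CPM (median 36.8) to 6.36 to 32 CPM (median 13.9) (-1.2 ± 0.2). CDX2 and TEAD4 both act early in trophectoderm specification, and the change of TEAD4 was -0.98 with library size alone, under the fold threshold.

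Markers of cells that flushing could carry along were read in the same way. Of 5 endometrial markers with a row, FOXA2 and HOXA10 were called higher, and ESR1, MSX1 and SPP1 were not. The summed level of the 5 was 5.77 to 11.5 CPM on Day 10 and 12.9 to 40.8 CPM on Day 12, and the defining genes PGR and OXTR had no row. FOXA2 is also a hypoblast marker. Of 12 markers of blood and leukocytes, 8 had no row, among them the leukocyte genes PTPRC, CD14 and CD68, and AIF1, a macrophage gene, was the 1 called of the other 4, from 1 to 4.86 CPM (median 3.11) to 37.6 to 127 CPM (median 45.4) (4.36 ± 0.35). Their summed level was 34.8 to 48.6 CPM on Day 10 and 75.5 to 161 CPM on Day 12. The part of such cells in the rise of S100A9, ITGB2 or AIF1 was not tested. PECAM1, the only endothelial marker of 6 with a row, rose from 16.4 to 41.8 CPM (median 24.8) to 22.7 to 188 CPM (median 80.3) (1.63 ± 0.26).

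**Figure D3:**
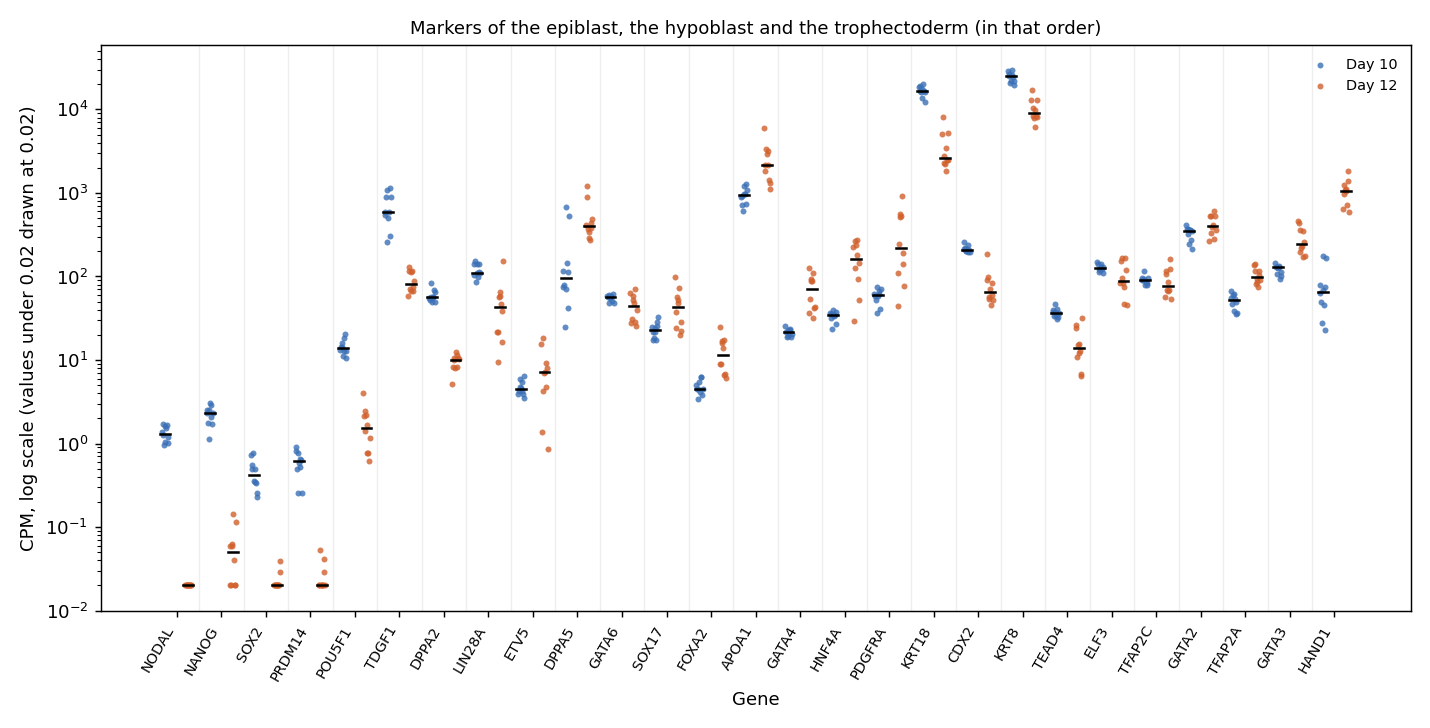
CPM on a log scale in each Day 10 (blue) and Day 12 (orange) embryo for the markers of the epiblast, the hypoblast (7 of 8 drawn) and the trophectoderm, each list sorted from the largest fall to the largest rise, with the median as a bar. In the epiblast list 8 of 10 genes were called lower, in the hypoblast list 6 of 8 were called higher.

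Among the function lists with 12 genes or more, the metalloproteinase and the laminin lists held the highest share of genes called higher (66.7% each, beside 14.9% of all genes). Of 15 matrix metalloproteinases and their inhibitors, 10 were called higher and 0 lower, with a median log2 fold change of 2.19. TIMP4, an inhibitor of these proteases, rose from 0.454 to 2.96 CPM (median 1.77) to 17.8 to 333.5 CPM (median 123), a log2 fold change of 6.22 ± 0.4 (SE, adjusted p = 1.66e-14). MMP25, a membrane-anchored protease, rose from 0.832 to 1.96 CPM (median 1.24) to 1.97 to 65.1 CPM (median 18.7) (4.14 ± 0.36), and MMP7 from at most 3 counts to 0.24 to 10.9 CPM (median 2.12), at least 15.6-fold higher (adjusted p = 9.5e-08). MMP14, which had the highest mean count of the list, rose from 50.04 to 193 CPM (median 67.7) to 129.3 to 264 CPM (median 189) (1.17 ± 0.21). Of 12 genes of laminins, nidogens and perlecan, 8 were higher and 2 lower. LAMA3, a chain of the laminin of hemidesmosomes, rose from 0.863 to 7.48 CPM (median 3.38) to 40.2 to 611 CPM (median 167), a log2 fold change of 5.9 ± 0.69 (SE, adjusted p = 1.19e-08), whereas its partner chain LAMB3 fell from 3.36 to 17.4 CPM (median 7.16) to 1.35 to 6 CPM (median 2.69) (-1.52 ± 0.31). LAMA1 and LAMC1, of the early basement membrane, rose from 164 to 346 CPM (median 233) to 381 to 1889 CPM (median 720.4) and from 243.5 to 419 CPM (median 321.5) to 427 to 1900.1 CPM (median 866). Of 15 collagens, 9 were higher and 2 lower, and COL4A1 of the basement membrane rose from 235 to 519.8 CPM (median 320.4) to 668 to 2218 CPM (median 1133) (1.91 ± 0.19). COL11A1 went the other way, from 1.34 to 4.2 CPM (median 2.73) to at most 3 counts. Against a fold change of 2, 3 of the 15 collagens were called higher, in male embryos alone 3 and in female embryos alone 5.

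Among the genes of adhesion receptors and junctions more members were called higher than lower. Most were not called in the integrin (11 of 19), gap junction (5 of 8) and tight junction (15 of 24) lists. In the cadherin list 8 of 20 were higher and 4 lower. Against a fold change of 2, 2 of the 19 integrins were called higher. ITGB2, the beta chain of leukocyte integrins, rose from 0 to 0.534 CPM (median 0.151) to 1.08 to 87.4 CPM (median 12.6), a log2 fold change of 6.69 ± 0.64 (SE, adjusted p = 1.54e-10), within 7 higher and 1 lower of 19 integrins. Among 8 gap junction genes, 3 were higher and 0 lower, and GJA1, connexin 43, rose from 4.7 to 13.2 CPM (median 6.79) to 371 to 1410.0 CPM (median 782), a log2 fold change of 6.91 ± 0.26 (SE, adjusted p = 7.27e-20). The desmosomal cadherins DSG3 and DSC2 fell. DSG3 went from 31.4 to 57.7 CPM (median 41.8) to 0.118 to 1.38 CPM (median 0.419), a log2 fold change of -6.31 ± 0.3 (SE, adjusted p = 1.69e-17), and DSC2 from 742 to 1067 CPM (median 845) to 58.9 to 304 CPM (median 219) (-2.01 ± 0.18). In the same family P-cadherin, CDH3, rose from 0.463 to 1.39 CPM (median 0.87) to 0.579 to 80.2 CPM (median 8.42) (4.33 ± 0.66) and CDH17 from 0.245 to 7.62 CPM (median 0.526) to 1.01 to 73.2 CPM (median 31.7) (4.18 ± 0.83), both with overlapping days, and E-cadherin, CDH1, was not called, at 463 to 675 CPM (median 521) and 200.4 to 957 CPM (median 659). CLDN3, a tight junction claudin, rose from 2.57 to 33.5 CPM (median 5.13) to 76.8 to 280.3 CPM (median 143) (4.04 ± 0.43), and CLDN8 fell from 55.7 to 105.5 CPM (median 86.4) to 4.2 to 40.6 CPM (median 29.96) (-1.72 ± 0.25), in a list with 8 higher and 1 lower of 24.

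In both of the larger guidance families, known from axons and migrating cells, every call was a rise. Of 23 semaphorins, plexins and neuropilins, 14 were called higher and 0 lower (median log2 fold change 1.5), and of 15 ephrins and EPH receptors 7 were higher and 0 lower (median 1.03). Against a fold change of 2, 7 of the 23 and 6 of the 15 were called higher. SEMA3E, a secreted semaphorin, rose from 0 to 0.273 CPM (median 0.0634) to 2.46 to 12.7 CPM (median 6.51), a log2 fold change of 6.49 ± 0.41 (SE, adjusted p = 1.46e-14), and the membrane-bound SEMA5A from 0.0515 to 0.954 CPM (median 0.588) to 4.08 to 50.2 CPM (median 17.4) (5.1 ± 0.4). PLXNB2, a receptor with the highest mean count of its list, rose from 116 to 179 CPM (median 149) to 268 to 466 CPM (median 337) (1.2 ± 0.077), with a small spread on both days. The receptor EPHA4 rose from 0.154 to 0.869 CPM (median 0.521) to 7.79 to 27.9 CPM (median 11.9) (4.79 ± 0.29) and the ligand EFNB1 from 4 to 7.25 CPM (median 5.7) to 18.4 to 41.8 CPM (median 39.5) (2.63 ± 0.16). Of 13 netrins, slits and their receptors, 3 were higher and 1 lower. UNC5B, a netrin receptor, rose from 3.68 to 11.4 CPM (median 5.33) to 24.2 to 125 CPM (median 63.7) (3.49 ± 0.24). PLXNB2, EFNB1 and UNC5B had no overlap between the days, beside 16.6% of all genes. For SEMA3E, SEMA5A and EPHA4 the rule for a gene turned on sets that the days do not overlap. SLIT2, a ligand of ROBO receptors, went the other way, from 0.0869 to 2.46 CPM (median 0.441) to at most 3 counts, at least 1.68-fold lower (adjusted p = 9.71e-06), with overlapping days.

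In Notch signalling, 6 of 29 genes were higher and 1 lower. The receptor NOTCH1 was the 1 that fell, from 2.67 to 15 CPM (median 6.21) to 0.145 to 1.56 CPM (median 0.523), a log2 fold change of -3.5 ± 0.38 (SE, adjusted p = 1.93e-09), whereas the target genes HES1 and HEYL rose, HES1 from 0.411 to 3.18 CPM (median 0.85) to 11 to 18.7 CPM (median 14.3) (3.67 ± 0.27) and HEYL from at most 3 counts to 0.451 to 7.09 CPM (median 2.85). EGF family ligands went both ways. EREG, epiregulin, fell from 361 to 883 CPM (median 548) to 26 to 196 CPM (median 89.8), a log2 fold change of -2.62 ± 0.24 (SE, adjusted p = 4.96e-11), and the neuregulins NRG1 and NRG2 rose, NRG1 from 0.454 to 3.74 CPM (median 3) to 7.68 to 47.6 CPM (median 21.8) (3.04 ± 0.35) and NRG2 from 3.91 to 19.3 CPM (median 14.3) to 27 to 117.5 CPM (median 61.2) (2.21 ± 0.26). ERBB3, a receptor of neuregulins, rose from 217 to 506 CPM (median 250.3) to 360.4 to 1969 CPM (median 1130.2) (1.97 ± 0.2). CXCL12, a chemokine, fell from 8.52 to 196 CPM (median 13.1) to 0 to 1.15 CPM (median 0.318) (-6.64 ± 0.7). Embryos d10_m_453 and d10_f_454 were far above the others of their day in CXCL12. Of 28 genes induced by interferons, 8 were higher and 0 lower, of which ISG15 went from 0 to 1.14 CPM (median 0.0991) to 2.01 to 9.55 CPM (median 3.79) (4.26 ± 0.54), and STAT3 rose from 2.23 to 5.49 CPM (median 2.76) to 2.34 to 50.7 CPM (median 19.4) (2.97 ± 0.33).

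Calls among genes of the cytoskeleton were found in both directions. KRT8 and KRT18, the paired keratins of simple epithelia, fell, KRT8 from 19627 to 29326 CPM (median 25073) to 6139 to 17097 CPM (median 9154), a log2 fold change of -1.26 ± 0.13 (SE, adjusted p = 7.87e-10), and KRT18 from 12415 to 19890.0 CPM (median 16491) to 1849.8 to 8126 CPM (median 2639.8), a log2 fold change of -2.21 ± 0.19 (SE, adjusted p = 2.4e-11). No Day 12 embryo reached the lowest Day 10 embryo for either gene. Of 86 actin regulators 17 were higher (19.8%) and 10 lower (11.6%), beside 14.9% and 8.39% of all genes, and ACTB itself was not called, at 5147 to 8975 CPM (median 6701) and 5294 to 11571 CPM (median 7462). CORO2A, a coronin, rose from 0.608 to 3.32 CPM (median 1.5) to 89.8 to 263 CPM (median 198), a log2 fold change of 6.85 ± 0.25 (SE, adjusted p = 1.67e-20). MSN and RDX, moesin and radixin, which tie actin to the membrane of microvilli, fell from 1107 to 2261 CPM (median 1599) to 233 to 521 CPM (median 434) (-1.95 ± 0.14) and from 419.8 to 884 CPM (median 592) to 25.8 to 203 CPM (median 173) (-2.09 ± 0.21). LIMA1, which bundles actin, fell from 143 to 340.5 CPM (median 199) to 9.4 to 25.7 CPM (median 17.3) (-3.64 ± 0.2).

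Among the lysosomal and sphingolipid genes more members fell than rose. Of 43 genes of lysosomal hydrolases and their cofactors 11 were lower and 6 higher (median -0.40). GM2A, which presents ganglioside GM2 to its hydrolase, fell from 7502 to 9360.1 CPM (median 8601) to 39.7 to 164.5 CPM (median 64.4), a log2 fold change of -6.89 ± 0.2 (SE, adjusted p = 4.31e-23), and PSAP, the precursor of the saposins, from 5278 to 9308 CPM (median 6455) to 323.5 to 525.5 CPM (median 382), a log2 fold change of -4.03 ± 0.12 (SE, adjusted p = 1.34e-22). They had medians of 5296 and 8225.5 CPM on Day 8. The opposite direction was seen for DNASE2, the acid nuclease, from 3.74 to 5.52 CPM (median 4.95) to 24.5 to 390.4 CPM (median 101.5) (4.72 ± 0.36), and for CTSL, cathepsin L, from 270.9 to 573 CPM (median 439.7) to 1053 to 12690.0 CPM (median 4689), a log2 fold change of 3.6 ± 0.29 (SE, adjusted p = 4.43e-12). Sphingolipid enzymes had 8 lower and 6 higher of 36. Within the ceramide synthases CERS6 fell from 75.3 to 415 CPM (median 221) to 1.31 to 6.27 CPM (median 3.03) (-6.24 ± 0.32) and CERS3 from 23.4 to 58.5 CPM (median 34.2) to 0.0872 to 2.36 CPM (median 0.453) (-5.9 ± 0.38), and CERS4 rose from 1.78 to 5.56 CPM (median 2.38) to 3.61 to 39.5 CPM (median 23.9) (2.87 ± 0.28). These enzymes differ in the length of the fatty acid that they attach.

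Transporters and enzymes moved in both directions. Solute carriers had 60 higher and 36 lower of 242, and ABC transporters 3 higher and 8 lower of 29. ABCG2, an export pump of the placenta, fell from 355 to 621 CPM (median 532) to 5.79 to 108 CPM (median 48.3), a log2 fold change of -3.35 ± 0.26 (SE, adjusted p = 1.43e-12). SLC30A2, a zinc transporter, fell from 47.8 to 411 CPM (median 306.6) to 0.368 to 8.12 CPM (median 1.08) (-7.1 ± 0.48), and SLC26A9, an anion transporter, rose from 0.454 to 2.31 CPM (median 0.787) to 30.8 to 289.5 CPM (median 128) (7.0 ± 0.39). Of 5 genes of creatine synthesis and use, 4 were higher and 0 lower, and CKB, the brain form of creatine kinase, rose from 141 to 264 CPM (median 189.9) to 965 to 2446 CPM (median 1257), a log2 fold change of 2.88 ± 0.16 (SE, adjusted p = 5.33e-16). Of these 5 genes, 2 were called higher against a fold change of 2, 1 in male embryos alone and 3 in female embryos alone. GPX1, a selenium-dependent peroxidase, rose from 60.3 to 132.7 CPM (median 104) to 241 to 1776 CPM (median 842) (3.16 ± 0.25), whereas the mitochondrial SOD2 fell from 203.5 to 280.4 CPM (median 239) to 46.1 to 132.6 CPM (median 82.9) (-1.53 ± 0.14). Of 12 cytochrome P450 genes 6 were lower and 3 higher. CYP26A1, which degrades retinoic acid, rose from 0.685 to 5.84 CPM (median 2.31) to 27.2 to 367 CPM (median 195), a log2 fold change of 6.23 ± 0.5 (SE, adjusted p = 3.89e-12). CYP17A1, of estrogen synthesis, fell from 456 to 14224 CPM (median 3878) to 28 to 179.7 CPM (median 78.8), a log2 fold change of -5.88 ± 0.52 (SE, adjusted p = 2.72e-11), with a wide spread on Day 10. PLIN2, the coat of lipid droplets, fell from 457 to 880.2 CPM (median 691) to 65 to 192.5 CPM (median 108) (-2.57 ± 0.16), and RBP4, the carrier of retinol, rose from 5.04 to 76.7 CPM (median 11.9) to 112 to 434 CPM (median 212) (3.59 ± 0.42).

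Few calls fell into 3 other groups. Of 60 histone methyltransferases and demethylases 1 was higher and 2 lower, of 29 autophagy genes 1 was higher and 1 lower, and of 45 cyclins and CDK inhibitors 3 were higher and 1 lower. These shares were below those of all genes. The exceptions in the last list included CCND1, cyclin D1, from 1.13 to 3.82 CPM (median 1.78) to 28.4 to 67.9 CPM (median 47), a log2 fold change of 4.55 ± 0.26 (SE, adjusted p = 8.52e-16), CDKN1A, the inhibitor p21, from 7.3 to 21.8 CPM (median 11.3) to 27.4 to 153 CPM (median 77.7) (2.9 ± 0.32), and CCND3, cyclin D3, which fell from 77.6 to 132 CPM (median 101) to 31.3 to 50.9 CPM (median 35.5) (-1.36 ± 0.12). Of 9 DNA methylation enzymes, 3 were higher and 1 lower. TET3, which oxidizes methylcytosine, rose from 6.88 to 17.4 CPM (median 8.27) to 27.2 to 75.7 CPM (median 50.4) (2.41 ± 0.19), and DNMT3B, which sets the mark, from 295 to 386 CPM (median 342) to 435.2 to 1059 CPM (median 754) (1.14 ± 0.12). TET2, of the same family as TET3, fell from 53.7 to 90.4 CPM (median 74) to 23 to 45.8 CPM (median 31.9) (-1.06 ± 0.13), and its call was lost with library size alone (-0.88) and without embryos d12_f_245 and d12_f_271 (-0.99).

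**Figure D4:**
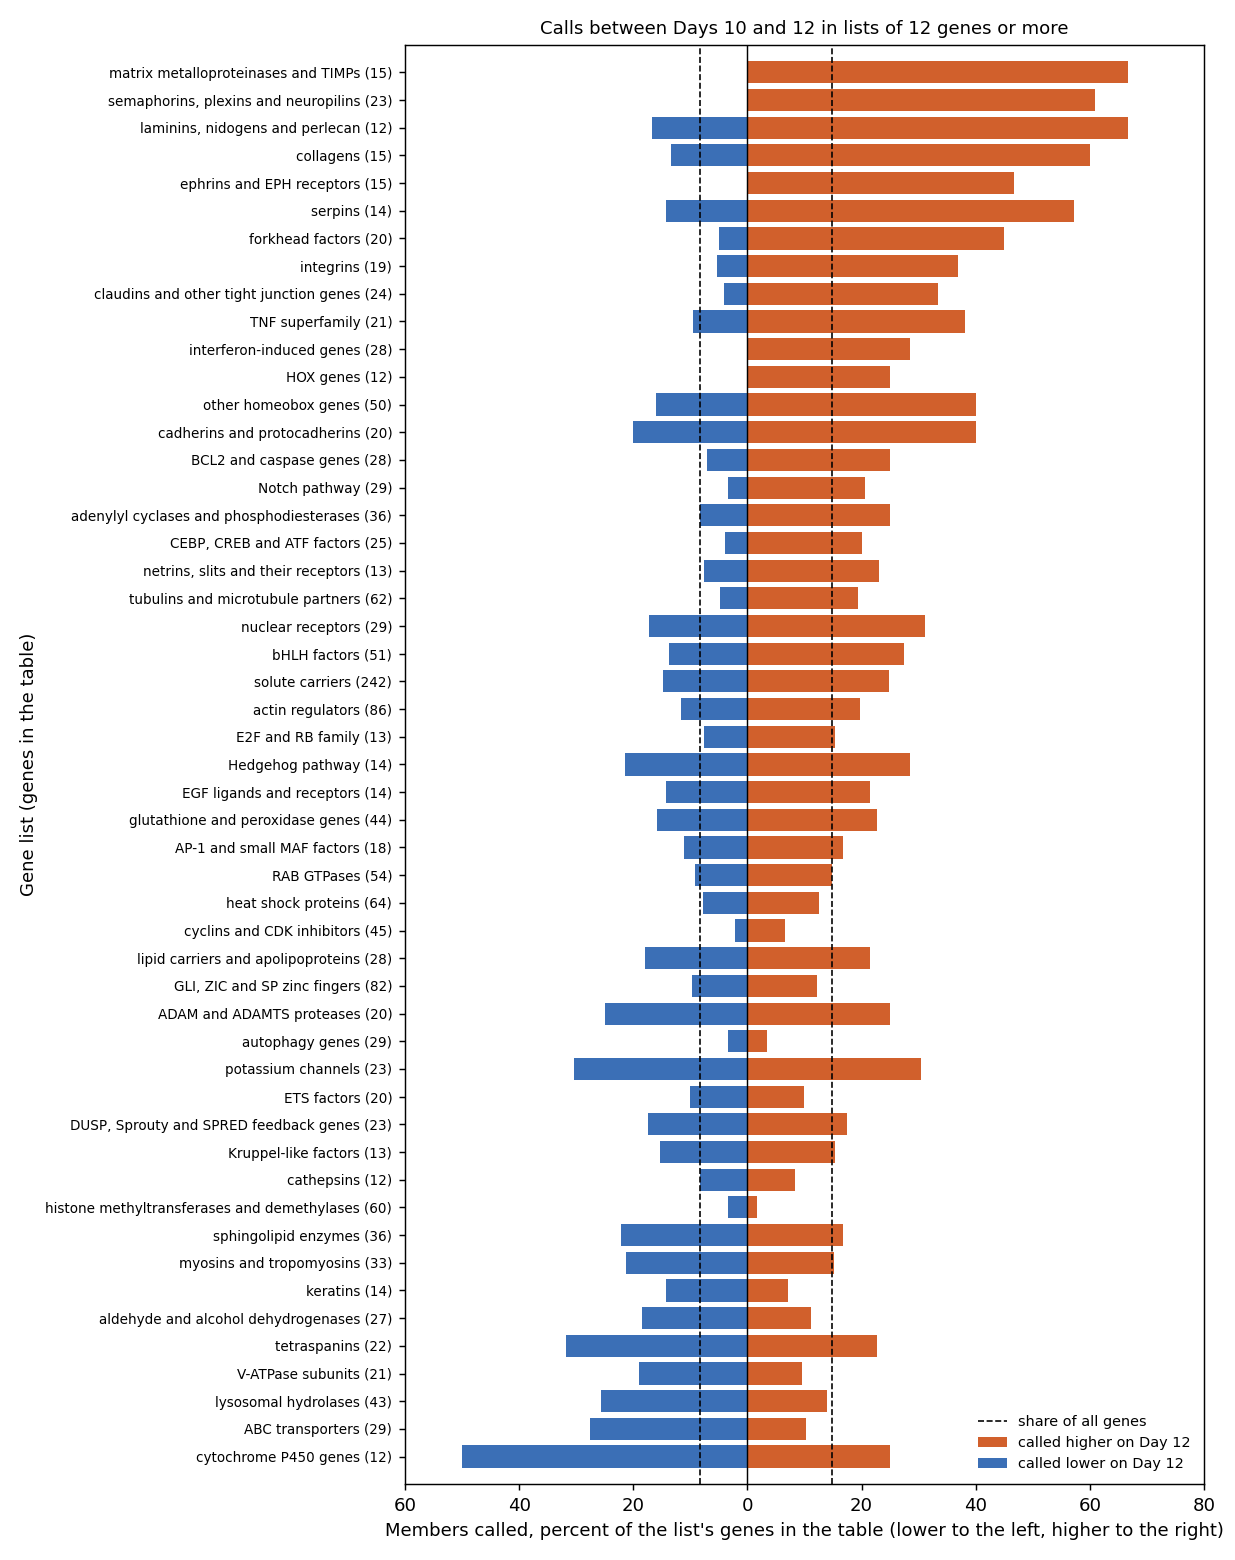
Share of the members of each gene list that was called higher (orange, to the right) or lower (blue, to the left) on Day 12, for 51 lists with 12 genes or more in the table, with the number of genes in brackets. The dashed lines mark the shares over all genes, 14.9% and 8.39%. The matrix metalloproteinases, semaphorins, ephrins, HOX genes and interferon-induced genes have no member on the left.

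The 10 called genes that lost most CPM summed to 72099 to 128471 CPM on Day 10 (median 106859) and to 9513 to 27232 CPM on Day 12 (median 13481). They were KRT8, KRT18, GM2A, PSAP, IL1B2 and 5 genes named by number only, LOC110258582, LOC110255300, LOC110258095, LOC100521229 and LOC100157453. IL1B2, the interleukin 1 beta gene of the pig conceptus, fell from 3637 to 22012 CPM (median 11084) to 33.4 to 235 CPM (median 80.5), a log2 fold change of -6.77 ± 0.5 (SE, adjusted p = 5.7e-13), after a median of 1.75 CPM on Day 8. Reads of IL1B2 and of PAG6, each with close relatives in the pig genome, may be divided among copies, so that their levels are uncertain. The 10 called genes that gained most summed to 3408 to 8269 CPM on Day 10 and to 21016 to 98545 CPM on Day 12. PLET1, a surface protein of trophoblast progenitors in the mouse (chromosome 9, 39936355 to 39949709), rose from 3.74 to 18.5 CPM (median 8.57) to 3745.5 to 18544 CPM (median 9891), a log2 fold change of 10.22 ± 0.66 (SE, adjusted p = 2.55e-14). IFNG, interferon gamma, rose from 19.5 to 93.8 CPM (median 42.7) to 1112 to 19216 CPM (median 9020.0) (7.65 ± 0.56), with embryo d12_f_245 at the lower end. PAG6, a pregnancy-associated glycoprotein, rose from 0.174 to 1.42 CPM (median 0.473) to 853 to 16495 CPM (median 3531) (13.18 ± 0.67), CTBS, a lysosomal chitobiase, from 20.4 to 85.1 CPM (median 50.9) to 851 to 4983 CPM (median 3097) (5.95 ± 0.34), and UPTI, a plasmin and trypsin inhibitor, from 631 to 1548 CPM (median 806) to 2319 to 6291 CPM (median 3724) (2.18 ± 0.19). FN1, fibronectin, went from 1162 to 3543 CPM (median 2367) to 839.9 to 13492 CPM (median 5170.2) (1.43 ± 0.34, adjusted p = 0.000579), and 3 Day 12 embryos, d12_f_245, d12_f_271 and d12_m_307, were below the median of Day 10. This call was lost, with an adjusted p of 0.00101 to 0.00204, without any 1 of 6 Day 10 embryos (d10_f_315, d10_f_336, d10_f_433, d10_m_318, d10_m_321 and d10_m_435) and 4 Day 12 embryos (d12_f_297, d12_f_299, d12_m_249 and d12_m_275), and in the fit of the 20 embryos alone (0.00421).

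**Figure D5:**
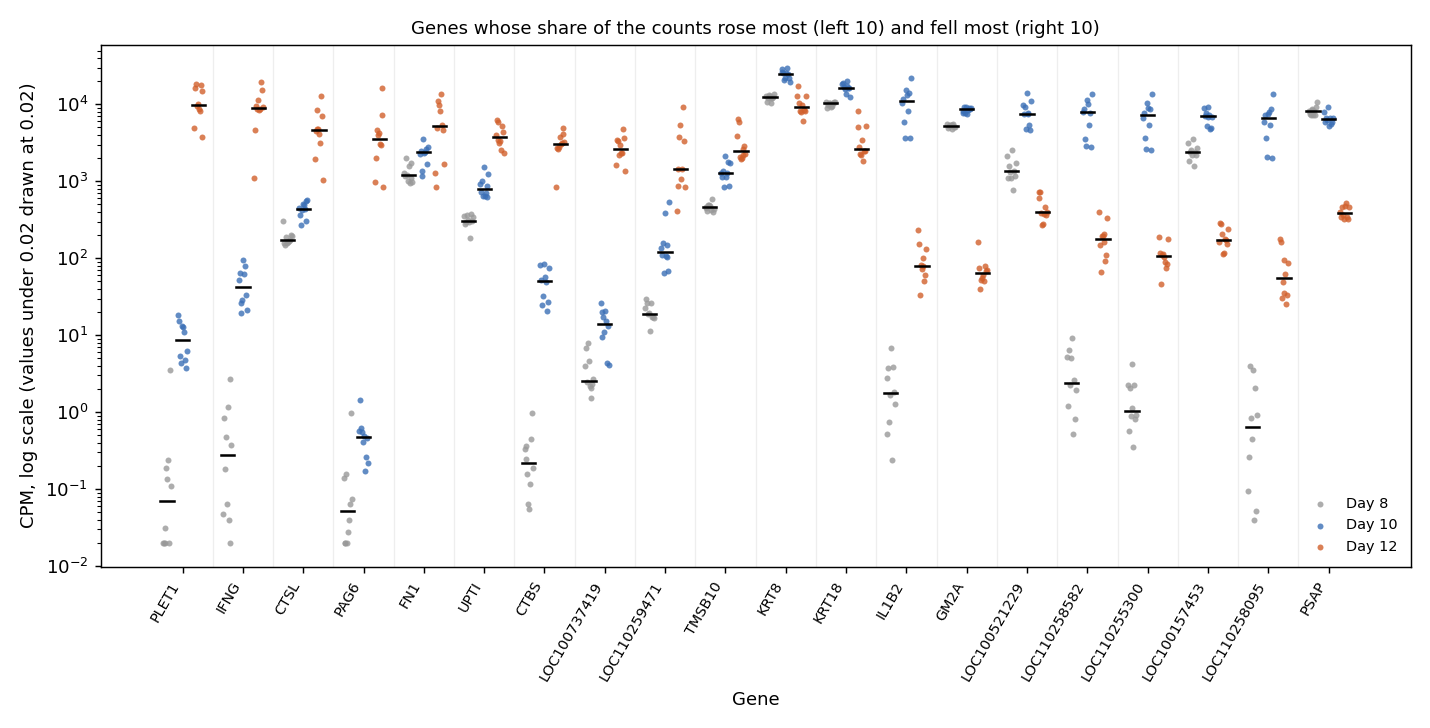
CPM on a log scale in each embryo of Day 8 (grey), Day 10 (blue) and Day 12 (orange) for the 10 called genes that gained most CPM between Days 10 and 12 and the 10 that lost most, with the median as a bar. IL1B2 and 3 unnamed genes are high on Day 10 alone, whereas KRT8, KRT18, GM2A and PSAP are high on Days 8 and 10.

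The change did not differ detectably between the sexes at an adjusted p under 0.05, with 0 genes in the interaction of sex and day by edgeR and a smallest adjusted p of 0.192. At an unadjusted p under 0.05 there were 2473 genes (18.9% of those tested), where chance alone gives a share of 0.05. DESeq2 called 27 genes. The edgeR count rested on single embryos, since 1111 genes were called without female embryo d12_f_299 and 1 without male embryo d12_m_307. In the fit of sex and day, all 3050 genes called between the days had the same sign in females and males. These genes had been called on the same embryos of both sexes, so that a shared sign was largely set by their choice. The median absolute difference between the sexes in these genes was 0.401 on the log2 scale.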

How the data were processed

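Single whole embryos were sequenced from TruSeq stranded mRNA libraries. The authors deposited a table of raw read counts per NCBI gene ID for all 30 embryos, which was used here, and 1 table for each day, which was not. Per the methods, reads were trimmed with Trim Galore and mapped to pig genome version Sscrofa11.1 with the NCBI annotation, and genes under a CPM cutoff were removed. Which aligner, counter and cutoff were used is not given in the sources used here. All 13103 IDs matched a RefSeq table of the same assembly, from which symbols and positions were taken.

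Days 10 and 12 were compared in 1 fit of all 30 embryos with the day as the group (edgeR 4.0.16 in R 4.3.3, TMM factors, quasi-likelihood F test with robust dispersions, Benjamini-Hochberg adjustment over all genes). The sexes were compared by the interaction of sex and day at an adjusted p under 0.05. SE is the size of the log2 fold change over the square root of F. Alternatives, among them DESeq2 1.42.0, are given in the closing section, and the fits were tested on simulated data. Floors of 3 counts cover counting error only.

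The genes, lists, thresholds and tests were chosen with earlier results of these data known. Of the called transcription factors without overlap between days, the 15 that rose most and the 15 that fell most were eligible to be named, with all called members of factor lists of up to 8 genes. Also eligible were the 12 genes turned on and the 12 turned off with the largest change and a symbol that is no LOC number, up to 3 called members per direction and the member with the largest mean count in every other list, the 10 called genes each whose share of all counts rose or fell most, and any lineage marker. Other genes turned on, listed without values, were chosen after their values were seen. The labels do not tie an embryo to its gilt. Promoter sequences were not analysed here, and some genes and 2 gene lists are not reported here.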

Additional observations from a re-analysis of the deposited data

Results flagged for a closer look

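For the genes whose levels are given above, 1 embryo lay far from the other 9 of its day in 51 of 274 groups (18.6%) by Dixon's criterion, the gap to the nearest embryo relative to the range of the day. For normally distributed values chance marks about 1 in 20 groups. The levels were not put on a log scale, and the share that chance gives for them was not measured. In 6 cases (COL11A1, FYB, GAPDHS, RNASE12, MMP7 on Day 10 and UABP-2) the level was at most 3 counts. Each time it was the highest embryo of its day.

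On Day 12 the following genes were marked. Embryo d12_m_276 was far above the others in CDH3 (80.15 CPM), DNASE2 (390.4 CPM), FOSL1 (20.63 CPM), IFN-DELTA-1 (87.37 CPM), ITGB2 (87.37 CPM), LAMA3 (611.1 CPM), MMP25 (65.1 CPM), PAG6 (16495.5 CPM), POU6F1 (58.78 CPM) and SEMA5A (50.25 CPM). Embryo d12_f_245 stood apart in FYB (0.434 CPM), GAPDHS (0.434 CPM), GATA5 (4.196 CPM), GM2A (164.5 CPM), ISG15 (9.549 CPM), POU5F1 (4.051 CPM), RNASE12 (0.434 CPM) and S100A9 (247 CPM). In embryo d12_m_307 the highest levels were those of CERS3 (2.36 CPM), DSC1 (0.5804 CPM), ESRRB (0.9286 CPM), FOXI3 (10.72 CPM), HBB (8.357 CPM), LIN28A (151.6 CPM) and SLC30A2 (8.125 CPM). Embryo d12_f_271 was far above the others in AIF1 (126.6 CPM), CDX2 (185.7 CPM), COL11A1 (0.12 CPM), KRT18 (8125.8 CPM) and MORN3 (55.45 CPM). Embryo d12_m_275 stood apart in MMP7 (10.91 CPM) and PECAM1 (188 CPM). In embryo d12_f_289 the highest levels were those of PLXNB2 (465.7 CPM). Embryo d12_f_299 was far above the others in AQP9 (0.2355 CPM).

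On Day 10 the following genes were marked. Embryo d10_m_453 was far above the others in GJA1 (13.15 CPM), HES1 (3.179 CPM), RBP4 (76.74 CPM), S100A9 (0.9394 CPM), SLIT2 (2.457 CPM) and UABP-2 (0.1084 CPM). Embryo d10_m_435 stood apart in CDH17 (7.621 CPM), ISG15 (1.141 CPM) and WNT3A (8.533 CPM). In embryo d10_f_433 the highest levels were those of SEMA3E (0.2726 CPM) and TEAD2 (4.544 CPM). Embryo d10_f_454 was far above the others in MMP7 (0.1029 CPM) and UNC5B (11.37 CPM). Embryo d10_f_317 stood apart in PAG6 (1.419 CPM). In embryo d10_f_336 the highest levels were those of HBB (6.856 CPM). Embryo d10_m_318 was far above the others in GATA5 (0.1958 CPM). Embryo d10_m_333 stood apart in XPNPEP2 (64.98 CPM).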

How the results depend on the processing

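No called value of a named gene changed its direction under any alternative run. Against a fold change of 2, 1574 genes were called, 984 higher and 590 lower. In male embryos alone 2003 genes were called, 1169 of them higher, and in female embryos alone 1263 were higher, with fewer embryos in each fit. With silence under 0.5 CPM 29 genes were turned on and 10 off, and with 9 of 10 embryos 107 on and 46 off. DESeq2 called 27 genes in the interaction of sex and day. Leaving out each embryo in turn gave 2963 to 3083 called genes, 50 to 62 turned on, 22 to 28 turned off and 0 to 1111 in the interaction, where 1111 were called without d12_f_299 and 1 without d12_m_307, and the cause was not tested. Of 332 called named genes, 11 lost the call in at least 1 such fit, and 251 were called against a fold change of 2, 280 in females alone, 256 in males alone and 302 with a mean of at least 1 CPM, where fewer genes were tested. In 10 of 70 lists that leaned one way, the lean turned under at least 1 alternative, among them SOX, E2F and RB, GLI, ZIC and SP factors, Hedgehog, myosins, cadherins, V-ATPase, heat shock and lipid carrier genes. No paired analysis was possible because the numbers in the labels are each of 1 embryo and the days share none. Leaving out d12_f_245 and d12_f_271 together was chosen after seeing the data. It gave 62 genes on and 31 off, and 0 in the interaction (683 at an unadjusted p under 0.05). Library d12_f_245 was the smallest, so that its low counts are the least precise, and litter could not be modelled.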
